A study of Mus musculus with 22 samples.

Results

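The immunity-related GTPases are a family of large GTP-binding proteins of mice that cells make after exposure to interferon. The 8 members described here, Igtp, Iigp1, Irgm1, Irgm2, Tgtp1, Tgtp2, Gm4951 and Gm4841, were found by their gene symbols among the 46078 genes counted. They were chosen by their measured difference between these same groups of mice, so their group differences, and the counts of members called in them, are a description and support nothing. RNA was sequenced from the distal colon of 22 mice, with 1 library per mouse. The C57BL/6 group held 8 wild-type mice aged 14 weeks (4 males, 4 females). The Winnie group held 7 mice aged 14 weeks (3 males, 4 females), labelled inflamed, which carry a missense mutation of the mucin gene Muc2 in every tissue and develop chronic colitis without any added agent. The Winnie-Prolapse group held 7 mice of the same line aged 18 weeks (4 males, 3 females), labelled severely inflamed. Prolapse, severity and age go together in that group and cannot be told apart. The study's methods count fewer Winnie mice for colon RNA than the labels give, and all 7 labelled libraries were used here. The study drew its 14-week C57BL/6 and Winnie mice from 1 breeding colony.

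Immunity-related GTPases defend cells against microbes that live inside a membrane-bound vacuole, such as Toxoplasma and Chlamydia. Interferon gamma binds its receptor, made of Ifngr1 and Ifngr2, and signals through the kinases Jak1 and Jak2. Genes that answer to it carry GAS elements, and one of them, Irf1, codes for a factor that binds interferon-stimulated response elements (ISRE). Both kinds of site lie in the promoters of this family. The effector members load onto the vacuole and disrupt its membrane. The regulator members sit on the cell's own membranes and hold the effectors in their inactive, GDP-bound state there. In the gut the family is known as a target of interferon gamma made by lymphocytes.

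Effectors and regulators differ by 1 residue of the P-loop, the loop of the protein that grips the phosphates of GTP. Effectors have the lysine of other GTPases at that place and regulators have a methionine. The P-loop was looked for in the longest reading frame of each member's GENCODE M21 transcripts. It held the methionine in 3 members, Igtp, Irgm1 and Irgm2, and the lysine in the other 5. The 24 coding bases of the loop are shown for 1 member of each kind, with the codon that differs in capitals. Irgm1 and Irgm2 carried the same 24 bases as Igtp, and Tgtp2 carried those of Tgtp1.
Igtp: ggggactctggcaatggcATGtca
Tgtp1: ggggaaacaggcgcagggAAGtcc

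Promoter sequences from RefSeq (GRCm38.p6) were at hand for 5 of the 8 members, Igtp, Irgm1, Irgm2, Tgtp1 and Tgtp2. Each ran from 250 bases before to 50 bases after the gene's start and was searched on both strands for 2 cores of 9 letters. The core GAAANNGAA is a short form of the ISRE, and TTCNNNGAA is the GAS core, and either may overlap another match at its outer letters. All 5 promoters held GAAANNGAA, against 8.6% of all 32851 promoters of the same length. TTCNNNGAA was found in 4 of the 5, against 8.3% of all promoters, and 1.1% of all promoters held both. The 70 bases around the matches are shown because the spacing is shared, with every matched base in capitals and each sequence read in the direction of its gene. They lie at chr11:58199481-58199550 (plus strand) for Igtp, chr11:58214872-58214941 (plus strand) for Irgm2, chr11:48992295-48992364 (minus strand) for Tgtp1, chr11:49064254-49064323 (minus strand) for Tgtp2 and chr11:48871421-48871490 (minus strand) for Irgm1.
Igtp: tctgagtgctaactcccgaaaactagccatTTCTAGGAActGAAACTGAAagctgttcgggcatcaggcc
Irgm2: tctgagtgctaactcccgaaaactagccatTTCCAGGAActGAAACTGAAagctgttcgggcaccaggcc
Tgtp1: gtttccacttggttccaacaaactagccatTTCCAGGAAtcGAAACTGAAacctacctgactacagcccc
Tgtp2: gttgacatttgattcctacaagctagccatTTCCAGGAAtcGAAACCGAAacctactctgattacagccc
Irgm1: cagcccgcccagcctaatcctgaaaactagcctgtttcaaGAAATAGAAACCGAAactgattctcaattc

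In Igtp, Irgm2, Tgtp1 and Tgtp2 the GAS core was followed by the ISRE-like core after 2 bases. The GAS core began 45 bases before the start in Igtp, 75 in Irgm2, 88 in Tgtp1 and 81 in Tgtp2. Irgm1 had no match to the GAS core in its window and held 2 overlapping ISRE-like cores, which began 30 and 24 bases before the start. The Irgm1 stretch also lies within the first exon of a non-coding Irgm1 transcript of GENCODE that starts further upstream. These matches describe letters only, since no binding was measured.

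**Figure D1:**
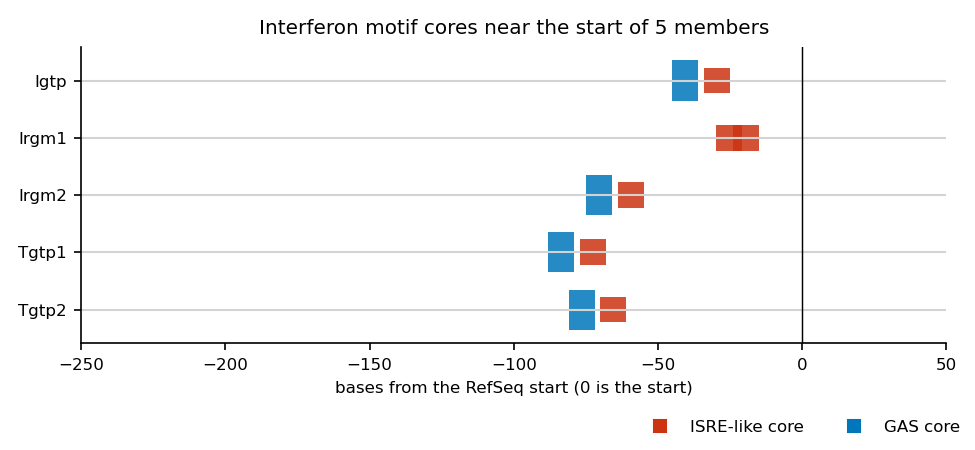
The horizontal axis gives the distance in bases from the RefSeq start, and each line is the promoter of 1 member from 250 bases before to 50 bases after the start. Red boxes are GAAANNGAA matches and blue boxes TTCNNNGAA matches, each 9 bases long. The pair of boxes sits side by side in 4 members, and Irgm1 has 2 overlapping red boxes alone.

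The genes that code for Tgtp1 and Tgtp2 were nearly the same sequence. Over 1248 aligned coding bases they differed at 4, an identity of 99.7%. Of the 100-base windows along the longest Tgtp1 transcript, 83.3% were also found in a transcript of Tgtp2 or of the neighbouring family gene Gm12185, and for Tgtp2 this share was 80.41%. How the authors' counting treated reads that fit more than 1 gene is not given in the sources used here, so the split between these 2 genes is uncertain and their sum is the safer value. A count that left such reads out would lower their sum as well. The share was 5.67% for Igtp and 2.48% for Irgm2, which overlap each other by 162 exonic bases on the same strand, and 0.33% or less for the other 4 members. Between members of different kinds the coding identity ran from 51.5% (Iigp1 and Irgm1) to 57.6% (Igtp and Tgtp2). The closest pair after the Tgtp genes was Iigp1 and Gm4951, at 88%.

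The members lie in clusters on 2 chromosomes (GRCm38, GENCODE M21). On chromosome 11, Irgm1 (also known as Lrg-47) spans 48861968 to 48871683, Tgtp1 48985327 to 48994172 and Tgtp2 49057194 to 49064206, all on the minus strand. Igtp (also known as Irgm3) spans 58199556 to 58207591 and Irgm2 58199618 to 58222782, both on the plus strand. On chromosome 18, Gm4951 spans 60212080 to 60247820 on the plus strand, Gm4841 60268305 to 60273272 on the minus strand and Iigp1 (also known as Irga6) 60376027 to 60392634 on the plus strand. The counts are of reads over all exons of each gene.

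Libraries held 24.8 to 36.3 M counts. A count of 0 allows up to 3 counts, which is 0.0825 to 0.121 CPM (counts scaled to a library total of 1000000), and such limits cover counting error only. The 10 colon epithelium markers were above 0 in all 22 libraries, at a summed 9562 to 23843 CPM. Muc2 was also present throughout, with means (± SD) of 3594 ± 1791 CPM for the 8 C57BL/6, 2135 ± 813 for the 7 Winnie and 1889 ± 589 for the 7 Winnie-Prolapse mice, so its level cannot check the label of a missense allele. Leukocyte markers (12 genes such as Ptprc, Cd3e and Itgam) summed to 32.2 to 201 CPM in C57BL/6, 97.9 to 200.5 in Winnie and 109 to 306 in Winnie-Prolapse. All 12 were above 0 in every library of the inflamed groups and 11 in every C57BL/6 library. Smooth muscle markers summed to 6686 to 12048, 1986 to 7309 and 1309 to 3178 CPM in the same order of groups. In bulk tissue, fewer cells of a type and less RNA per cell cannot be told apart. Winnie-Prolapse replicate 6 stood apart, with 179624 CPM in 6 milk protein genes, against 1.85 to 54.2 CPM in the other 21 libraries.

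All 8 members were low in the C57BL/6 colon and high in the Winnie-Prolapse colon, and the Winnie colons spread between the 2 levels. Together the members took 0.00473% to 0.00804% of the counts of a C57BL/6 library, 0.00600% to 0.106% of a Winnie library and 0.0598% to 0.180% of a Winnie-Prolapse library. The medians were 0.00668%, 0.0819% and 0.0838%. One Winnie library, replicate 5 from a female, had the level of the C57BL/6 libraries.

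Among the regulators, Igtp ran from 8.38 to 13.0 CPM with a median of 8.98 in C57BL/6. In Winnie it ran from 7.97 to 220 CPM with a median of 133, and in Winnie-Prolapse from 122 to 379 CPM with a median of 156. The lowest Winnie library lay below all C57BL/6 libraries, and the other 6 lay above all of them. Irgm1, which is also needed for autophagy and for the upkeep of mitochondria, had medians of 26.7, 171 and 171 CPM in C57BL/6, Winnie and Winnie-Prolapse. Its libraries spanned 18.1 to 33.0, 22.5 to 195 and 135 to 362 CPM. Irgm2, a regulator found on the Golgi, had medians of 23.2, 148 and 158 CPM over ranges of 13.0 to 26.8, 22.2 to 213 and 114 to 265.5. For all 3 regulators every Winnie-Prolapse library lay above every C57BL/6 library, as it did for 6.5% of all genes.

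Among the effectors, Iigp1, the best studied vacuole-disrupting member, ran from 2.77 to 7.05 CPM in C57BL/6 with a median of 4.13. It ran from 4.56 to 273 CPM in Winnie with a median of 222, and from 147 to 526 CPM in Winnie-Prolapse with a median of 271. Tgtp1, an effector that loads early onto such vacuoles, was at 9 to 27 counts in the C57BL/6 libraries (0.325 to 0.857 CPM). In Winnie replicates 1 to 7 it was at 73.2, 57.4, 58.4, 4.86, 0.492, 8.11 and 42.7 CPM. The 3 males and the female replicate 7 were thus high, the females replicates 4 and 6 intermediate, and the female replicate 5 within the C57BL/6 range. In Winnie-Prolapse replicates 1 to 7 Tgtp1 was at 50.6, 38.9, 27.7, 87.1, 152, 51.2 and 84.8 CPM, with no library near the C57BL/6 range.

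Tgtp2 ran from 0.868 to 1.89 CPM in C57BL/6, 1.38 to 42.4 in Winnie and up to 85.9 in Winnie-Prolapse, where its median was 35.1. The sum of Tgtp1 and Tgtp2, which does not depend on how shared reads were split between these 2 genes, had medians of 1.97, 65.7 and 86.4 CPM. Gm4951 and Gm4841 are family members that code for lysine P-loops and are known mainly by sequence. They are grouped with the effectors here by that residue alone. Gm4951 ran from 0.376 to 1.01 CPM in C57BL/6, 0.755 to 40.1 in Winnie and 15.6 to 68.9 in Winnie-Prolapse. Gm4841 was at 0 to 4 counts in the C57BL/6 libraries, 5 to 619 in Winnie and 201 to 1134 in Winnie-Prolapse. It was the one member whose 7 Winnie libraries all lay above all C57BL/6 libraries, by 1 count at the closest, which is within counting error. Of the 17289 genes tested, which do not include Gm4841, 0.463% had every Winnie library above every C57BL/6 library.

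**Figure D2:**
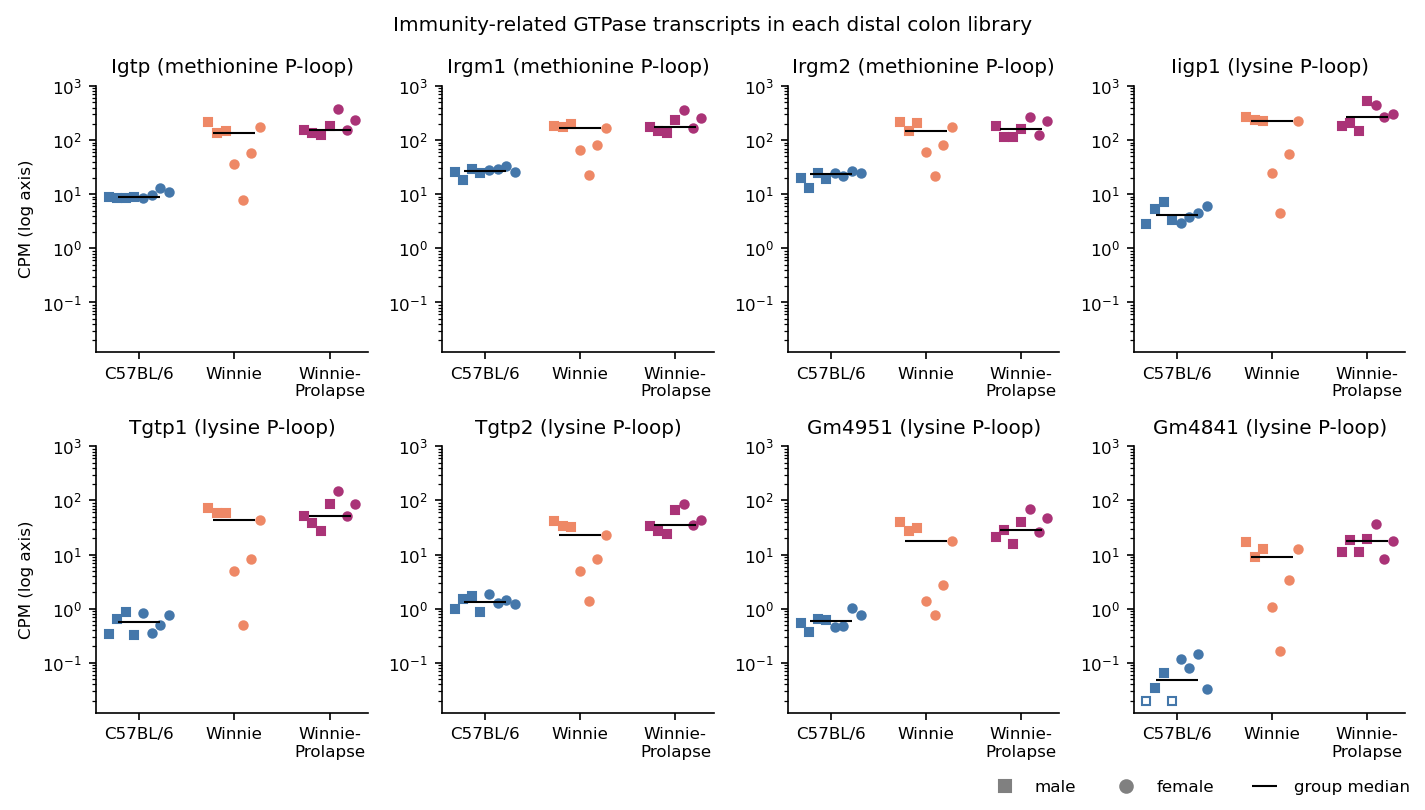
Each panel is 1 member, with CPM on a log axis. Each point is 1 mouse of the C57BL/6 (8), Winnie (7) or Winnie-Prolapse (7) group, squares are males, circles females, bars group medians, and open points at the bottom of the Gm4841 panel are libraries at 0 counts. In every panel 1 Winnie female (replicate 5) lies at or near the C57BL/6 points, and the Winnie-Prolapse points lie above all C57BL/6 points.

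The fitted differences between groups came from edgeR's quasi-likelihood model, where a log2 value of 1 is a doubling, and are given with their SE. The comparisons with C57BL/6 share the same 8 control libraries. Gm4841 failed the filter on low counts in Winnie against C57BL/6, so 7 of the 8 members were fitted there and 8 elsewhere, and a gene at such levels passes a filter only through the group in which it is high. In Winnie against C57BL/6 the log2 difference was 2.34 ± 0.34 for Irgm1, 2.63 ± 0.36 for Irgm2 and 3.61 ± 0.49 for Igtp. It was 4.00 ± 0.55 for Tgtp2, 4.88 ± 0.74 for Gm4951, 5.13 ± 0.66 for Iigp1 and 5.96 ± 0.80 for Tgtp1. In Winnie-Prolapse against C57BL/6 the regulators were at 3.02 ± 0.20 (Irgm2), 3.05 ± 0.20 (Irgm1) and 4.41 ± 0.23 (Igtp). The effectors were at 5.11 ± 0.28 (Tgtp2), 5.91 ± 0.32 (Gm4951), 6.13 ± 0.32 (Iigp1) and 6.97 ± 0.39 (Tgtp1). Gm4841 was at 8.19 ± 0.46, a value that rests on 0 to 4 counts per C57BL/6 library and depends on the prior count. In both comparisons the values of the effectors fitted lay above those of the regulators, from a lower C57BL/6 level. In Winnie, Tgtp2 and Igtp differed by less than either SE. The difference between effectors and regulators was not tested. The median over the members fitted was 4.00 in Winnie and 5.51 in Winnie-Prolapse, beside -0.01 over all genes tested in each.

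The study's limits were an adjusted p under 0.001 and a change of 1.5-fold or more. By these, 1 of the 7 members (Iigp1) was called higher in Winnie against C57BL/6, where 0.0868% of all 17289 genes were called higher and 0.00578% lower. At an adjusted p under 0.05 with the same fold, 7 of 7 were called higher, beside 7.42% of all genes higher and 8.53% lower. The members were chosen with this contrast known, so nothing is read from these counts. None of the 7 had every Winnie library above every C57BL/6 library, which 0.463% of all genes did. The count at 0.001 turned on single libraries. It was 8 without Winnie replicate 5, 6 without Winnie replicate 4, and 0 when any other single Winnie or C57BL/6 library was left out. Without Winnie replicate 5 the log2 differences ran from 2.52 (Irgm1) to 6.18 (Tgtp1) for the 7, and Gm4841, which passed the filter there, was at 7.31 ± 0.65.

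In Winnie-Prolapse against C57BL/6, 8 of 8 members were called higher at 0.001, beside 9.84% of all 17397 genes higher and 8.47% lower. At 0.05 it was again 8 of 8, beside 16.7% higher and 17.7% lower. All 8 had every Winnie-Prolapse library above every C57BL/6 library, beside 6.5% of all genes. The members were chosen from this contrast, so nothing is read from these counts. Without the milk-rich replicate 6 the count was 8 of 8 and the log2 differences ran from 3.07 (Irgm2) to 8.31 (Gm4841).

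In Winnie-Prolapse against Winnie the log2 difference was 0.40 ± 0.39 for Irgm2, 0.73 ± 0.38 for Irgm1 and 0.81 ± 0.51 for Igtp. It was 1.02 ± 0.63 for Iigp1, 1.02 ± 0.71 for Tgtp1, 1.04 ± 0.69 for Gm4951, 1.12 ± 0.56 for Tgtp2 and 1.12 ± 0.64 for Gm4841. All 8 values were above 0, and 0 of 8 members were called by edgeR, by DESeq2 or at an unadjusted p under 0.05. Of all 17041 genes, 0% were called higher and 0% lower at 0.001. At 0.05, 4.27% were higher and 2.72% lower, with no member among them. No member had all Winnie-Prolapse libraries above all Winnie libraries, which 0.411% of all genes did. Without Winnie replicate 5 the 8 values ran from 0.21 (Irgm2) to 0.91 (Tgtp2).

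**Figure D3:**
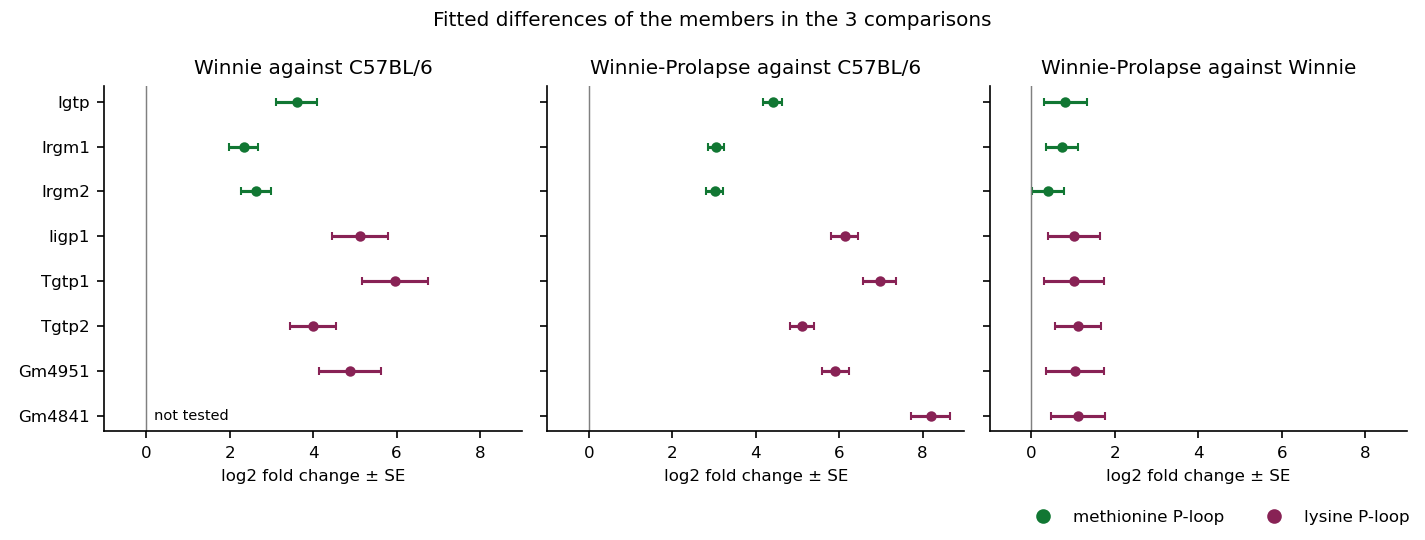
The horizontal axis is the fitted log2 difference with its SE for each member, in panels for the 3 comparisons, with regulators (methionine P-loop) in green and effectors (lysine P-loop) in purple. Regulators lie at 2.34 to 3.61 in Winnie against C57BL/6 and the effectors fitted there at 4.00 to 5.96. All 8 members lie between 0.40 and 1.12 in Winnie-Prolapse against Winnie.

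Levels of different genes were compared as CPM per kilobase (kb) of exon, with all annotated exons of a gene merged (5810 bases for Irgm1 and 5823 for Iigp1). The order of the leading genes depends on this length, since the longest coding transcript of Irgm1 holds 2259 bases and that of Iigp1 3121. The values of Tgtp1 and Tgtp2 also depend on how shared reads were counted, which is not known. Both would be too low if such reads were left out, so their place in the order is uncertain in every group. In C57BL/6 the 3 regulators led, with Irgm2 at 5.94 ± 1.20 (SD, n = 8), Igtp at 4.78 ± 0.80 and Irgm1 at 4.60 ± 0.75 CPM per kb. Iigp1 followed at 0.763 ± 0.267, Tgtp2 at 0.465 ± 0.120, Gm4951 at 0.231 ± 0.077, Tgtp1 at 0.181 ± 0.071 and Gm4841 at 0.0207 ± 0.0185. Every regulator was higher per kb than every effector in the mean. Igtp exceeded Irgm1 in 4 of 8 libraries and Gm4951 exceeded Tgtp1 in 5 of 8, so those neighbours did not differ beyond their spread. By the length of that transcript, an alternative added after the values were seen, Irgm1 led at 11.8 ± 1.93 CPM per kb, ahead of Irgm2 at 6.21 ± 1.25 and Igtp at 4.78 ± 0.80, with every effector again below.

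In Winnie-Prolapse the order per kb of merged exon was another. Igtp led at 96.2 ± 44.1 CPM per kb (SD, n = 7), and the effector Iigp1 came next at 51.3 ± 24.2, ahead of Irgm2 at 45.8 ± 15.7 and Irgm1 at 36.3 ± 13.8. Iigp1 exceeded Irgm2 in 4 of 7 libraries only, so these 2 did not differ beyond their spread. By the length of the transcript Igtp (96.2 ± 44.1), Iigp1 (95.7 ± 45.2) and Irgm1 (93.3 ± 35.5) lay within 1 SD of each other, with Irgm2 at 47.9 ± 16.4. Per kb of merged exon, Tgtp1 (21.9 ± 13.2), Tgtp2 (15.4 ± 7.75), Gm4951 (13.4 ± 6.87) and Gm4841 (6.17 ± 3.39) followed. The place of Tgtp1 and Tgtp2 is again uncertain because of their shared reads. Tgtp2 exceeded Gm4951 in 5 of 7 libraries, and each of the other neighbouring pairs kept its order in all 7. In Winnie the means per kb of merged exon ran in the order Igtp, Irgm2, Iigp1, Irgm1, Tgtp1, Tgtp2, Gm4951 and Gm4841, from 55.2 to 2.81 CPM per kb. There Iigp1 exceeded Irgm1 in 4 of 7 libraries and Tgtp1 exceeded Tgtp2 in 4 of 7. By the length of the transcript the first in Winnie was Irgm1 (56.8 ± 30.9). Igtp (55.2 ± 38.9), Iigp1 (47.5 ± 36.6) and Irgm2 (36.6 ± 21.1) came after it.

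The near-identical pair did not keep its ratio. Per kb, the ratio of Tgtp1 to Tgtp2 was 0.258 to 0.570 in C57BL/6, with 0 of 8 libraries above 1. In Winnie-Prolapse it was 1.06 to 1.75, with 7 of 7 above 1. In Winnie it was 1.54 to 1.71 in the 4 high libraries, 0.904 and 0.910 in replicates 4 and 6, and 0.327 in replicate 5. By transcript length 0 of 8 C57BL/6 libraries, 4 of 7 Winnie and 7 of 7 Winnie-Prolapse libraries were likewise above 1. The C57BL/6 ratios rest on 9 to 27 counts of Tgtp1 and 24 to 55 of Tgtp2. The part that the counting of shared reads has in this ratio was not tested.

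**Figure D4:**
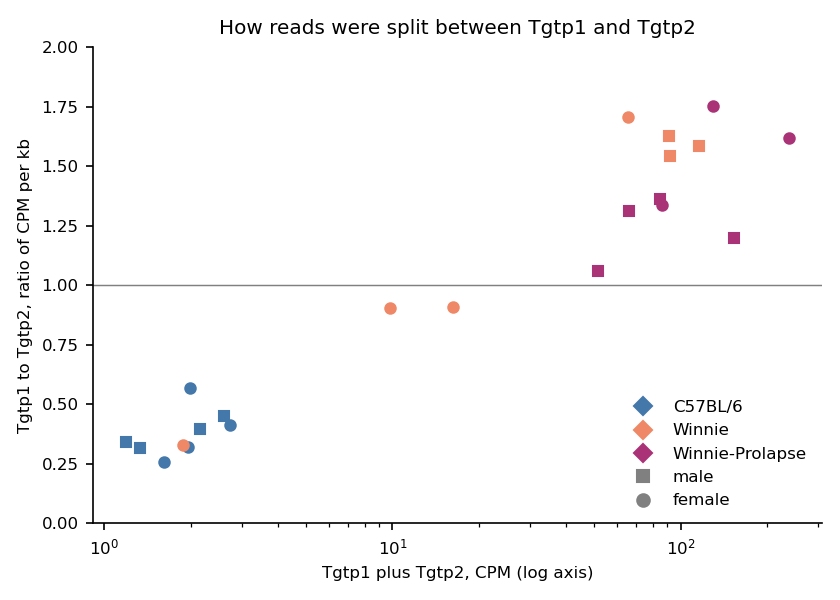
Each point is 1 library, with the summed CPM of Tgtp1 and Tgtp2 on the horizontal log axis and the ratio of Tgtp1 to Tgtp2 in CPM per kb on the vertical axis, coloured by group, squares for males and circles for females. Libraries with a low sum (all C57BL/6 and Winnie replicate 5) lie below a ratio of 0.6 and the Winnie-Prolapse libraries lie above 1.

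Sex was not used to choose the members, so it could be tested. With group in the model, the log2 difference of females from males ran from -0.40 ± 0.54 (Gm4951) to 0.02 ± 0.36 (Igtp). None of the 8 passed (adjusted p from 0.966 to 0.999 in edgeR's quasi-likelihood test, 0 at an unadjusted p under 0.05, 0 by DESeq2), beside 14 of 18236 genes over the table. Within Winnie the 3 males and 4 females overlapped in 4 members (Igtp, Iigp1, Irgm2 and Gm4841) and did not in the other 4, where the males were higher. Over all 18236 genes, 14.5% had every Winnie male above every Winnie female and 6.78% the reverse. Gm4951, a member without overlap, was at 27.6 to 40.1 CPM in the 3 Winnie males and 0.755 to 17.9 CPM in the 4 Winnie females. Igtp, a member with overlap, was at 133 to 220 CPM in the males and 7.97 to 177 CPM in the females. In Winnie-Prolapse Gm4951 was at 15.6 to 39.7 CPM in the 4 males and 26.2 to 68.9 CPM in the 3 females, with the females higher in the mean.

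The sex by group term was Winnie against C57BL/6 in females minus the same in males, on the log2 scale. For the members other than Gm4841 it was negative throughout, from -1.21 ± 0.55 (Irgm1) to -2.73 ± 1.04 (Gm4951). For Gm4841 it was -3.14 ± 1.85, a value that rests on 0 to 4 counts per C57BL/6 library. At an unadjusted p under 0.05, 4 members stood (Gm4951, Tgtp2, Irgm2 and Irgm1), beside 13.1% of all 18911 genes, or 6.74% with a negative term. None passed after adjustment, with adjusted p from 0.299 (Gm4951) to 0.552 (Iigp1) by edgeR, where 0 of all genes passed. By DESeq2 0 of 8 were under 0.05, beside 176 of all genes (1.02%). Leaving out Winnie replicate 7, the female with high members, gave 1 member under 0.05. For Winnie-Prolapse the same term was positive for each member but Gm4841, from 0.28 ± 0.59 (Irgm2) to 0.85 ± 1.24 (Tgtp1). Gm4841, on the same low C57BL/6 counts, was at -1.10 ± 1.76. None passed, with adjusted p from 0.975 to 0.995 by edgeR. These SEs leave differences between the sexes of 2-fold and more possible.

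The spread between mice of a group was not itself used to choose the members, and was set against Ifng, the gene of interferon gamma. Within Winnie this spread is not independent of the choice. Those libraries run from the C57BL/6 level of the members (replicate 5) to their Winnie-Prolapse level, the contrast by which the members were chosen. The relations within Winnie may thus restate the group difference in part. Ifng was at 0 or 1 count in all 8 C57BL/6 libraries, under the limit of 3 counts. In Winnie replicates 1 to 7 it was at 39, 63, 19, 1, 2, 8 and 11 counts, and in Winnie-Prolapse at 47 to 312 counts with a median of 3.16 CPM. The female replicates 4 and 5, the lowest for each member, were also the 2 Winnie libraries with fewer than 3 Ifng counts. The 3 Winnie males (19 to 63 counts) all lay above the 4 females (1 to 11), so within Winnie the level of Ifng and sex cannot be told apart, and each sex holds too few libraries for a correlation of its own. In Winnie-Prolapse the sexes overlapped for Ifng, at 47 to 176 counts in males and 86 to 312 in females.

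Within Winnie (n = 7) Pearson's r of log2 CPM with Ifng ran from 0.79 (Igtp) to 0.91 (Gm4951), with exact permutation p from 0.00516 to 0.0319 (two-sided). Adjusted over 16 relations (8 members in 2 groups), the exact permutation p was 0.0455 for all 8. At an unadjusted exact permutation p under 0.05 all 8 had a positive r, as did 13.2% of 17768 genes, and 8.56% had a negative one. Adjusted over all these genes none of them passed, and the members' exact permutation p ran from 0.117 to 0.188. Spearman's rho ran from 0.71 to 0.93, and 0 of 8 passed by rho (adjusted exact permutation p from 0.0544 to 0.108). Without the 2 libraries farthest from the Ifng median, replicates 2 and 4, r was 0.91 to 0.96 over 5 libraries. The summed leukocyte markers of the 4 libraries with high members were 183, 200.5, 98.1 and 116 CPM (replicates 1, 2, 3 and 7). Those of replicates 4, 5 and 6 were 131, 97.9 and 102 CPM, so the 2 highest sums were in libraries with high members and the ranges overlapped. Their part in the relation was not tested.

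Within Winnie-Prolapse (n = 7), r ran from 0.46 (Irgm2) to 0.87 (Iigp1), and 5 of 8 members passed at an adjusted exact permutation p of 0.0455 to 0.0488. Irgm1 (0.0619), Irgm2 (0.284) and Gm4841 (0.232) did not pass by the same adjusted exact permutation p. Unadjusted it was 5 of 8, beside 2.04% of all genes with a positive r and 3.52% with a negative one. Adjusted over all genes none passed here either, with exact permutation p from 0.753 to 0.777 for the members. By Spearman's rho (0.43 to 0.89) 0 of 8 passed, with adjusted exact permutation p from 0.0544 to 0.354. Without the 2 libraries farthest from the Ifng median, replicates 5 and 1, r was 0.85 for Iigp1, 0.80 for Tgtp2 and 0.74 for Tgtp1, with exact permutation p from 0.0583 to 0.175 over the 5 libraries left. It was 0.33 to 0.58 for Irgm2, Igtp, Gm4951 and Irgm1 and -0.11 for Gm4841, with exact permutation p from 0.308 to 0.925. Of the 16 relations 13 passed with all libraries. The number was 0 when Winnie replicate 1, 3, 6 or 7, or Winnie-Prolapse replicate 2, 3, 4 or 5, was left out, and 7 without Winnie replicate 4 or 5. It was 11 to 15 without any of the other 4 libraries.

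**Figure D5:**
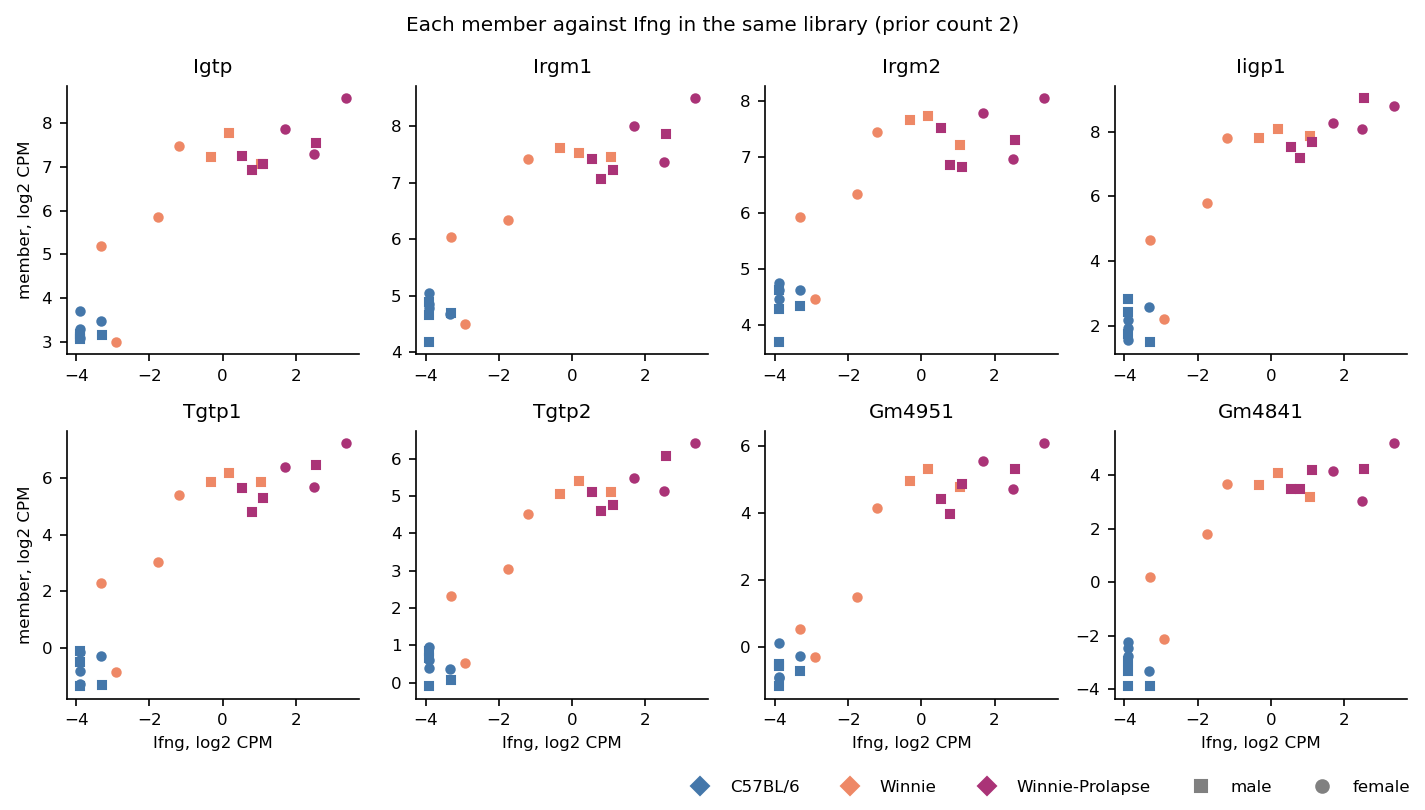
Each panel is 1 member, with log2 CPM of Ifng on the horizontal axis and log2 CPM of the member on the vertical axis, both with a prior count of 2. Points are libraries coloured by group, with squares for males and circles for females. The C57BL/6 points sit at the floor of Ifng, and the Winnie points run from there to the level of Winnie-Prolapse.

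The other genes of the pathway were taken from lists chosen, like the members, with earlier results of these data known. Their counts, and the p-values of single list genes, are therefore not independent evidence of a direction. Of 15 interferon signalling genes, 8 of the 14 tested rose in Winnie-Prolapse against C57BL/6 and 0 fell at an adjusted p under 0.001 by edgeR. Over all genes 9.84% were higher and 8.47% lower, and the list median was 1.06 on the log2 scale. Irf1 rose by 1.38 ± 0.13 (adjusted p = 1.44e-06, edgeR) and was higher in 7 of 7 libraries than in all C57BL/6 libraries. Among the others were Stat2, Irf9, Irf8, the feedback inhibitor Socs1, the interferon alpha receptor chain Ifnar2, and Ifng itself, which went from 0 or 1 count to at least 47. The chains of the interferon gamma receptor and its kinases were not called. Jak2 was at 0.56 ± 0.11, which passed on adjusted p (0.000573, edgeR) and missed the 1.5-fold limit, with 6 of 7 libraries above all C57BL/6 libraries. Ifngr1 was at -0.44 ± 0.14, Ifngr2 at -0.20 ± 0.15 and Jak1 at 0.06 ± 0.09. In Winnie against C57BL/6, 6 of 13 rose at an adjusted p under 0.05, beside 7.42% of all genes higher and 8.53% lower. Among the 6 was Irf1, by 1.09 ± 0.22 (adjusted p = 0.00497, edgeR). In Winnie-Prolapse against Winnie, 3 of 14 rose at 0.05 (Ifng, Socs1 and Ifnar2), beside 4.27% of all genes higher and 2.72% lower. Ifng was at 2.75 ± 0.69 there (adjusted p = 0.0285, edgeR).

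Guanylate-binding proteins are larger GTPases that act beside the family on the same vacuoles. All 9 of those tested rose in Winnie-Prolapse against C57BL/6 at 0.001, with a median of 3.50, beside 9.84% of all genes higher and 8.47% lower. Gbp2, the one with the highest level, rose by 4.47 ± 0.27 (adjusted p = 1.29e-08, edgeR), Gbp4 by 4.50 ± 0.34 (1.29e-07), Gbp3 by 3.48 ± 0.24 (3.95e-08) and Gbp7 by 2.72 ± 0.18 (3.28e-08). In Winnie all 9 rose at an adjusted p under 0.05, beside 7.42% of all genes higher and 8.53% lower. Gbp2 rose there by 3.90 ± 0.52 (adjusted p = 0.00102, edgeR).

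Of 9 other genes of the GTPase family, 6 of the 8 tested rose in Winnie-Prolapse against C57BL/6 at 0.001 (median 3.98). Over all genes 9.84% were higher there and 8.47% lower. In Winnie 5 of 7 rose at 0.05, beside 7.42% of all genes higher and 8.53% lower. Ifi47, a further lysine-type member also known as Irg-47, rose by 4.68 ± 0.46 (adjusted p = 1.69e-06, edgeR) in Winnie-Prolapse, and Gm12250, known as Irgb10, by 5.77 ± 0.40 (4.61e-08). Gm5431 rose by 3.27 ± 0.59 (0.000288). Irgq, a family member not known as an interferon target, was at 0.11 ± 0.15 and did not pass (adjusted p = 0.561). Both Ifi47 and Gm5431 had 1 high control library, C57BL/6 replicate 7, at 19.3 and 12.2 CPM against at most 4.98 and 2.19 CPM in the other 7. That library was also the highest of the 8 C57BL/6 libraries for 5 members, Igtp (13.0 CPM), Irgm1 (33.0), Irgm2 (26.8), Gm4951 (1.01) and Gm4841 (4 counts), and not for Iigp1, Tgtp1 and Tgtp2. Its summed epithelium (23843 CPM) and smooth muscle markers (12048) were the highest of the C57BL/6 libraries and its leukocyte markers (32.2) the lowest. Because this library was picked for its high Ifi47 and Gm5431, smaller SEs and p-values follow from leaving it out and are no further support. Without it, a choice made after the values were seen, Ifi47 was at 5.37 ± 0.24 (adjusted p = 2.58e-09, edgeR) and Gm5431 at 4.19 ± 0.40 (1.25e-06) in Winnie-Prolapse. The count of these family genes called was again 6 of 8 there, and 4 of 7 in Winnie at 0.05.

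The autophagy conjugation machinery places the effectors correctly, with its LC3 and GABARAP proteins. Of 16 genes for it and for ubiquitin adaptors, 1 rose (Trim21, by 0.80 ± 0.11) and 2 fell (Gabarapl1 by 1.06 ± 0.14 and Map1lc3a by 0.69 ± 0.13 on the log2 scale) in Winnie-Prolapse against C57BL/6 at 0.001, beside 9.84% of all genes higher and 8.47% lower. These counts are near that background, and nothing particular to the list is read from them. The median was -0.14. Gabarap was at 0.07 ± 0.11, Sqstm1 at 0.06 ± 0.10 and Becn1 at -0.04 ± 0.08, and none of these was called. Map1lc3b was at -0.49 ± 0.09, which passed on adjusted p (0.000327, edgeR) and missed the fold limit, with 7 of 7 libraries below all C57BL/6 libraries. In Winnie 2 of 16 fell at 0.05, the same Map1lc3a and Gabarapl1, and 0 rose, beside 8.53% of all genes lower and 7.42% higher. Leukocyte markers moved in the same comparison, with 6 of the 11 tested higher and 0 lower in Winnie-Prolapse against C57BL/6 at 0.001 (median 1.48), and 7 of 11 higher in Winnie at 0.05 (median 1.05). Smooth muscle markers moved the other way, with 6 of 6 lower in Winnie-Prolapse against C57BL/6 at 0.001 (median -1.85) and 6 of 6 lower in Winnie at 0.05 (median -0.89). The part of either in the results for the members and the lists was not tested.

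The genes most like the members were ranked by Pearson's r with the mean z-score of the members' log2 CPM over 22 libraries, among 17761 genes. These values describe libraries of 3 unlike groups. The first 5 were Tap1, the peptide transporter for antigen presentation (0.99), Gm12250 (0.99), Gbp3 (0.99), the family gene F830016B08Rik (0.98) and Gbp6 (0.98). With the group means taken out they were Tap1 (0.96), Tnfsf10, the death ligand TRAIL (0.96), Gm12250 (0.95), Gbp3 (0.94) and F830016B08Rik (0.93). Between the members themselves r ran from 0.97 to 0.996 over all libraries and from 0.88 to 0.99 with group means taken out. The highest value of each range was that of Tgtp1 and Tgtp2, whose shared reads may tie their counts together. With group means taken out, the spread left was widest in Winnie, where the mean z-score had run from -1.08 to 1.01.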

How the data were processed

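Per the labels and the study's methods, poly(A) RNA went into stranded libraries, read in paired ends and processed by the authors with RNAsik on GRCm38, and the submitters' processing notes name STAR, featureCounts and limma. The deposited values are raw read counts per gene with no normalization. The annotation release, strand setting and treatment of shared reads are not given in the sources used here. Groups and sexes came from the labels, replicate numbers follow the sample order and pair no mice, and no label names a batch. P-values set a difference or a correlation against the spread between these mice.

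Counts were tested with edgeR 4.0.16 (quasi-likelihood F test, TMM factors, filterByExpr, Benjamini-Hochberg adjustment over all genes tested), in each comparison on its own 2 groups. A gene was called at an adjusted p under 0.001 and 1.5-fold. CPM used library totals, and log2 CPM a prior count of 2. Relations with Ifng used exact permutations. DESeq2 1.42.0, other scalings and filters, sex as a covariate, 1 fit of all groups and leaving out each library were alternatives. The group test and the permutation test were tested on simulated data. No pair of libraries of a group agreed within sampling noise (lowest chi-square per degree of freedom 28.83).

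The text names all 8 members, Ifng, Irf1, the 4 genes of highest level in each pathway list and the 5 genes most like the members. The rule as fixed takes 1 further gene, which is not reported here. Further names in the lists of called genes, and Gm12185, were chosen after their values were seen. The members and lists were chosen with earlier results of these data known. Locations, exon lengths and transcripts are from GENCODE M21 (GRCm38) and promoters from RefSeq. Protein sequences were not used here.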

Additional observations from a re-analysis of the deposited data

Results flagged for a closer look

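In 51 sets of libraries (members, other family genes, Ifng and Irf1, each within 1 group), 6 held a library set off from the rest by a gap that was a large share of the whole log2 range. The limit was the 95% critical value of Dixon's test, and chance passes it in about 1 of 20 sets. In C57BL/6 replicate 2, Irgm1 (18.1 CPM, against 25.1 to 33.0 in the other 7) and Irgm2 (13.0 CPM, against 19.4 to 26.8) were the lowest, with gaps of 0.546 and 0.555. In C57BL/6 replicate 7, Ifi47 (19.3 CPM, against 2.70 to 4.98) and Gm5431 (12.2 CPM, against 0.684 to 2.19) were the highest, with gaps of 0.692 and 0.606. In Winnie replicate 5, Gm12250 (0.492 CPM, against 6.48 to 33.6) and Gm5431 (1.35 CPM, against 12.7 to 43.4) were the lowest, with gaps of 0.601 and 0.643. The members of Winnie replicate 5 were the lowest of their group too but passed no limit.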

How the results depend on the processing

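No paired analysis was possible because the replicate numbers were given in sample order and the labels tie no mouse of 1 group to a mouse of another. All 471 values of members' log2 differences under an alternative kept their direction and moved by less than 1 SD between replicates. That SD was the larger of the 2 groups compared and is wide for Winnie, where Tgtp1 ran from -0.84 to 6.19 log2 CPM. The limit is thus loose, and staying within it says little about how stable the values are. Members called in Winnie against C57BL/6 (1 in the report) came to 0 without TMM factors, 0 with at least 10 counts in every library, 3 with sex as a covariate, 7 at an adjusted p under 0.05, and 8 with DESeq2, with no filter or with all 3 groups in 1 fit. Leaving out 1 library gave 0 to 8. All genes called there (16) came to 8, 0, 26, 2757, 1203, 68 and 199 under the same settings in that order, and to 0 to 677 without 1 library (677 without Winnie replicate 5). List genes called there (0) came to 23 with DESeq2 and 22 at 0.05. In Winnie-Prolapse against C57BL/6, 3186 genes were called, 5004 with DESeq2 and 5981 at 0.05, and the members called were 8 of 8 under each setting but the minimum of 10 counts in every library, where they were 6. In Winnie-Prolapse against Winnie (0 genes), DESeq2 called 644, all groups in 1 fit 42, an adjusted p under 0.05 called 1191, and leaving out 1 library 0 to 1, while list genes (0) came to 1 with DESeq2 and 3 at 0.05. Members with a sex by group term (0) came to 0 to 1, and relations of members with Ifng that passed (13 of 16) to 0 to 15 when 1 library was left out and to 14 with TMM-scaled values. The cause was not tested. Depth limits Gm4841, Ifng and the C57BL/6 ratios of Tgtp1 to Tgtp2, which rest on few counts.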
